A study of Mus musculus with 4 samples.

Results

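The unfolded protein response and the integrated stress response were followed through 35 genes, all of which were found by gene name on the arrays, out of 24638 genes that passed the filter on dim probes. The genes were taken by name from a list of these pathways. They comprise 11 genes of the ATF4 and CHOP side, 4 stress sensors and their factors, 13 genes of the endoplasmic reticulum (ER) chaperone side and 7 genes of ER-associated degradation and of the translocon. All 35 genes were well above background on all 4 arrays. The brightest probe stands for each gene. Of 20 genes with more than 1 probe above background on every array, 8 had probes of both signs at ZT2 and 4 at ZT14 in the comparison of vancomycin with saline, and the other probes are given beside those genes.

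Kidney RNA of ICR mice, an outbred strain, was hybridized to 4 single-colour arrays. The groups were vancomycin injected at zeitgeber time 2 (ZT2, a clock in hours that begins at lights on), saline at ZT2, vancomycin at ZT14 and saline at ZT14. Kidneys were taken 1 day after the injection. Vancomycin is a glycopeptide antibiotic with known kidney toxicity at high exposure. Each group had 1 array, the labels give no dose, age or sex, and they do not say whether a sample came from 1 mouse or from a pool. A difference at 1 injection time therefore compares a pair of arrays and has no test. The ZT2 arrays shared 1 slide and the ZT14 arrays a different one, so injection time and slide cannot be told apart. Within each slide the treatments held different positions, so treatment and position cannot be told apart.

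Unfolded proteins in the ER are sensed by PERK, IRE1 and ATF6, which hold back translation, splice the Xbp1 message and release a transcription factor from the Golgi. ATF6 and spliced XBP1 raise chaperones and the machinery that draws misfolded proteins out of the ER. PERK and its sister kinases phosphorylate eIF2 alpha, which favours translation of ATF4, and ATF4 turns on CHOP (encoded by Ddit3) and genes of amino acid synthesis and transport. The kidney proximal tubule makes and recycles large amounts of membrane protein and is a known site of both responses in toxic injury. An expression array measures transcript alone and sees neither phosphorylation nor splicing nor the ATF6 cleavage.

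The promoters of the genes were searched for exact matches to known motifs, and near matches were not counted. RefSeq promoters of the GRCm38.p6 assembly, reaching from 250 bases before to 50 after the start, were held for 31 of the 35 genes. The ER stress response element was searched as CCAAT, then 9 bases of any kind, then CCACG, on both strands. It stood in 0.119% of 32851 mouse promoters, in 7 of the 11 ER chaperone genes with a promoter, in 2 of 6 genes of degradation and translocation, in 0 of 3 sensors and in 0 of 11 genes of the ATF4 and CHOP side. The matches are shown because this element is the known meeting point of ATF6 and NF-Y at chaperone genes. Capitals mark its ends, and each match reads 5′ to 3′ on the strand that holds CCAAT first.
Hspa5: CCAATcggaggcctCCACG
Hsp90b1, far: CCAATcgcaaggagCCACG
Hsp90b1, near: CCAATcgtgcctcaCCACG
Dnajc3: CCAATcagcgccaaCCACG
Creld2: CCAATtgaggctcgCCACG
Pdia6: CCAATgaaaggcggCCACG
Calr: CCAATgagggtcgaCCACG
Canx: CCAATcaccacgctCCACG
Syvn1: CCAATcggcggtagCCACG
Derl3: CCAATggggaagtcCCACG
The element began 65 bases before the start in Hspa5, and its last base lay 26 bases before the start in Syvn1, the nearest of the matches. The farther match in Hsp90b1 began 212 bases before the start.

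On the ATF4 side, the C/EBP-ATF composite site was searched as TGATGNAAN on both strands and stood in 3.95% of all promoters. It was present in 4 of the 11 genes of the ATF4 and CHOP side and in Herpud1 of the degradation group. The sites are shown since composite sites of this kind are known at amino acid response genes, though Phgdh and Psat1 held none here. The whole site is in capitals, each on the strand that holds TGATG.
Asns: TGATGAAAC
Chac1: TGATGCAAC
Vldlr: TGATGCAAC
Herpud1: TGATGCAAC
Trib3: TGATGTAAA
The Asns site lay 23 to 15 bases before the start, and the Trib3 site lay after the start. TTGCATCA, which on the other strand overlaps TGATGNAAN, stood in 0.895% of promoters and in Chac1, Vldlr and Herpud1. CCACG alone stood in 32.8% of promoters, in 10 of 11 chaperone genes and in 8 of 11 genes of the ATF4 and CHOP side. TGACGTGG, the unfolded protein response element, stood in 0.676% of promoters and in 0 genes of the set. A match is a description of letters in this window and not of binding.

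The promoters of the 3 genes that differed by 1.5-fold or more in a single direction at both times, and that of Hspa5, are printed in full, 5′ to 3′ along the gene, with any matches to the motifs in capitals. Ddit3 stands at chr10:127290543-127290842 on the plus strand and held no exact match. Its stretch cgtgccgctttctgattgg reads, on the other strand, CCAAT, then 9 bases, then GCACG, which is 1 base off the searched element. Asns stands at chr6:7693160-7693459 on the minus strand and held 1 CCACG and the composite site. Sdf2l1 stands at chr16:17132334-17132633 on the minus strand and held CCACG 3 times on the other strand. Hspa5 stands at chr2:34771840-34772139 on the plus strand and held the full ER stress response element.
Ddit3: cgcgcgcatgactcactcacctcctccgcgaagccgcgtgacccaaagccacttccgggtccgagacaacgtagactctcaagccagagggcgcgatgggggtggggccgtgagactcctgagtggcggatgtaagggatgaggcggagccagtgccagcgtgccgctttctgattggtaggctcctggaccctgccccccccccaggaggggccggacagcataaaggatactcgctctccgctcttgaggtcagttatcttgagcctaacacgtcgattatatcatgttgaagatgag
Asns: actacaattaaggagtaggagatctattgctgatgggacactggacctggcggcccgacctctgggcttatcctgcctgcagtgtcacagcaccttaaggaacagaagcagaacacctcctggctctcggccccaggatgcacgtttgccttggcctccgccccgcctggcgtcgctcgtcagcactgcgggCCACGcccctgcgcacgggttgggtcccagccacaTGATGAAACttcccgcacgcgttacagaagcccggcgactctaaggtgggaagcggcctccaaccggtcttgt
Sdf2l1: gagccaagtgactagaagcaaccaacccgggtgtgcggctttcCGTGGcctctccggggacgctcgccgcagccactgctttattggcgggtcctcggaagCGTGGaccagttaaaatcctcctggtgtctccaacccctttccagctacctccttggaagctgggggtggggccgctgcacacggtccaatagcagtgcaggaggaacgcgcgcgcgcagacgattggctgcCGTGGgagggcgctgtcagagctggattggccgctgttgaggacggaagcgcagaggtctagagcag
Hspa5: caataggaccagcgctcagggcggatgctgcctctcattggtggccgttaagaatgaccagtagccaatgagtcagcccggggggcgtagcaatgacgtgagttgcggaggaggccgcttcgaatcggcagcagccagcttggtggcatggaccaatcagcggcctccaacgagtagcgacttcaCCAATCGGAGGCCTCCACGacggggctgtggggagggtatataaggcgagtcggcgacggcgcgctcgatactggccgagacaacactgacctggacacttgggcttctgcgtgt

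**Figure D1:**
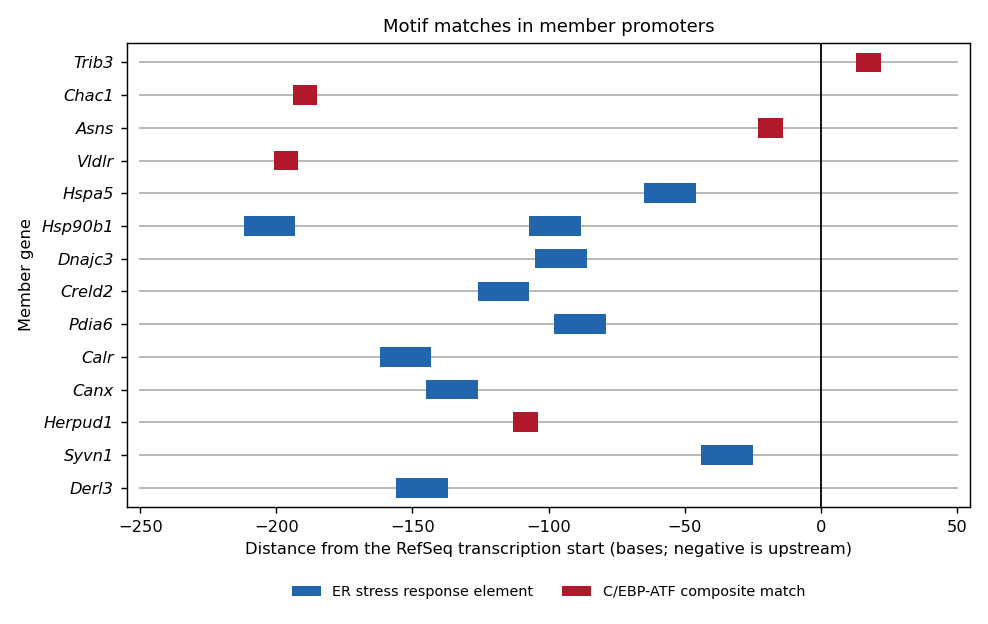
Map of motif matches in the RefSeq promoters of the genes, with the distance from the start of the gene in bases on the horizontal axis and 1 row per promoter. The ER stress response element appears in 7 chaperone genes, Syvn1 and Derl3, and the composite site in Asns, Chac1, Trib3, Vldlr and Herpud1.

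Levels are given as log2 of the array's processed signal, relative to the 75th percentile of its own array, and differences are vancomycin minus saline on the same log2 scale. On the brightest probes, Ddit3 had the largest difference of the 35 genes at each injection time. Ddit3 encodes CHOP, a transcription factor of the late stress response that is known to favour cell death. Its level was 0.47 with vancomycin and -0.62 with saline at ZT2, and -0.19 with vancomycin and -1.31 with saline at ZT14. Each vancomycin array was above both saline arrays, by 2.13-fold at ZT2 and 2.18-fold at ZT14 within the injection time. The probe lies at chr10:126731579-126731638 in the mm9 coordinates of the array files. A second Ddit3 probe, nearly as bright, was also higher, by 0.92 at ZT2 and 0.42 at ZT14. That is under 2-fold at both times, and at ZT14 it is smaller in size than the differences of Chac1, Derl3 and Hyou1. On the second probe, vancomycin at ZT14 (-0.56) lay close to saline at ZT2 (-0.60). An increase of 2-fold or more at both times, which Ddit3 had on its brightest probe only, was found in 0.178% of the 20759 genes above background on all arrays.

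An additive limma model of treatment plus time was fitted to the 4 arrays, with Benjamini-Hochberg adjustment over 24638 genes. In that fit the Ddit3 difference was 1.11 ± 0.14 (SE, 2 arrays per treatment), with an adjusted p of 0.52 in limma. The fit left 1 residual degree of freedom and called 0% of genes for vancomycin at an adjusted p under 0.05, so 0 of the 35 genes passed. Its p-values set the mean difference against an SE that joins 2 parts. These are the gap between the differences at ZT2 and ZT14, and a spread estimated over all genes. For genes with an SE of 0.14, most of it came from the spread shared by all genes, so it is not a precision of the single gene. Neither part measures a spread between animals.

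Atf4, the transcription factor at the head of this side, was also higher at both times. Its level was 6.13 with vancomycin and 5.53 with saline at ZT2, and 5.57 with vancomycin and 5.15 with saline at ZT14. The differences were 1.52-fold and 1.34-fold, and 0.52 ± 0.15 over both times, with an adjusted p of 0.57 in limma. Vancomycin at ZT14 and saline at ZT2 lay close together, so the treatments separated only slightly across times. A second Atf4 probe gave 0.22 and 0.36. The brighter probe lies at chr15:80087902-80087961 (mm9).

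Asns, which makes asparagine and is a textbook ATF4 target in amino acid shortage, was lower with vancomycin at both times. Its level was -1.25 with vancomycin and -0.57 with saline at ZT2, and -0.71 with vancomycin and -0.01 with saline at ZT14. The vancomycin array was thus the lower of its pair each time, by 1.60-fold and 1.63-fold, and both vancomycin arrays were below both saline arrays, though vancomycin at ZT14 lay close to saline at ZT2. Over both times the difference was -0.69 ± 0.14, with an adjusted p of 0.52 in limma. The probe lies at chr6:7625171-7625228 (mm9). A second, dimmer Asns probe gave 0.02 at ZT2 and -0.61 at ZT14, so the probes differed at ZT2.

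Phgdh, the entry enzyme of serine synthesis, was also lower at both times, with levels of 1.62 with vancomycin and 2.12 with saline at ZT2, and 1.48 with vancomycin and 1.70 with saline at ZT14. Both vancomycin arrays were below both saline arrays. Psat1, the next enzyme of the same route, did not share a direction between times. Its level was 2.61 with vancomycin and 2.27 with saline at ZT2, but 1.51 with vancomycin and 2.02 with saline at ZT14. The vancomycin array of ZT14 was the lowest of the 4, and a second Psat1 probe gave 0.11 and -0.53.

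Chac1, a glutathione-degrading enzyme below ATF4 and CHOP, had the widest gap between times. Its level was -2.34 with vancomycin and -2.54 with saline at ZT2, and -2.98 with vancomycin and -2.12 with saline at ZT14. It was thus slightly higher with vancomycin at ZT2 and 1.82-fold lower at ZT14, from the probe at chr2:119179990-119180049 (mm9). Trib3, a pseudokinase that restrains ATF4, went the same ways, with levels of -2.30 with vancomycin and -2.44 with saline at ZT2, and -2.83 with vancomycin and -2.31 with saline at ZT14. Both genes were lowest on the vancomycin array of ZT14. The per-array values of Phgdh, Psat1, Chac1 and Trib3 here, and those of Creld2, Manf, Hyou1 and Derl3 further on, were chosen after they were seen.

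The rest of this side differed less. Ppp1r15a encodes GADD34, which brings a phosphatase to eIF2 alpha and so restores translation, and its differences were 0.07 at ZT2 and -0.32 at ZT14. Cebpb, a bZIP partner of CHOP, gave 0.31 and 0.06. Vldlr, a lipoprotein receptor gene known as an ATF4 target, gave 0.22 and -0.11. Atf5, a factor related to ATF4 and likewise translated under stress, gave -0.27 and 0.24. Of the 11 genes, Ddit3, Atf4 and Cebpb were higher at both times, Asns and Phgdh were lower at both, and the other 6 had opposite signs. Over all genes above background on every array, 29.9% were higher at both, 27.3% were lower at both and 42.8% had opposite signs.

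**Figure D2:**
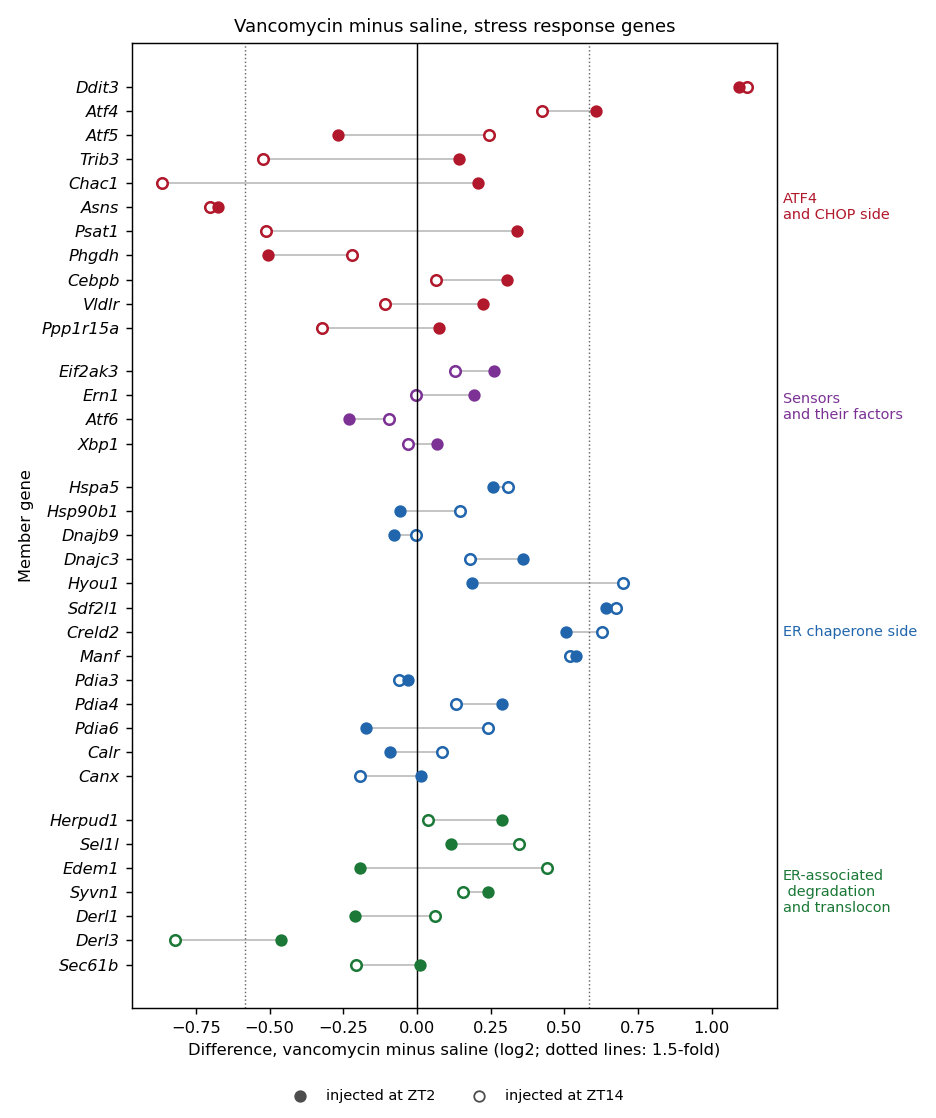
Difference of vancomycin minus saline (log2, horizontal axis) for each of the 35 genes in rows grouped by role, with filled points for injection at ZT2 and open points for ZT14, 1 pair of arrays each, and dotted lines at 1.5-fold. Ddit3 lies beyond 1 at both times, Sdf2l1 above and Asns below the dotted lines at both times, and Chac1 spans from 0.21 at ZT2 to -0.87 at ZT14.

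The sensors had small differences, and their sign at ZT2 depended on the probe. Eif2ak3, which encodes PERK, gave 0.26 at ZT2 and 0.13 at ZT14, and its second probe -0.01 and 0.15. Ern1, which encodes IRE1 alpha, gave 0.19 and -0.00, and its second probe -0.29 and -0.12. With the mean over all probes that passed the filter, Ern1 gave -0.51 at ZT2. Atf6 gave -0.23 and -0.10, against 0.48 at ZT2 with the mean over probes, which takes in a second Atf6 probe above background on 2 arrays. Xbp1, the factor made active by IRE1, had levels of 4.79 with vancomycin and 4.72 with saline at ZT2, and 5.01 with vancomycin and 5.04 with saline at ZT14. The difference was 0.07 at ZT2 and -0.03 at ZT14 on this probe, at chr11:5425816-5425875 (mm9). Its 2 other probes gave -0.21 and -0.20 at ZT2, and -0.01 and -0.03 at ZT14. The array values do not tell the spliced from the unspliced form.

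On the ER chaperone side, Sdf2l1, Creld2 and Manf were higher by more than 0.5 at both times. Sdf2l1, an ER protein that works with BiP and its J-domain partners, had levels of 0.65 with vancomycin and 0.01 with saline at ZT2, and 0.39 with vancomycin and -0.29 with saline at ZT14. Both vancomycin arrays were above both saline arrays, by 1.56-fold at ZT2 and 1.60-fold at ZT14. The difference over both times was 0.66 ± 0.14, with an adjusted p of 0.52 in limma, from the probe at chr16:17130426-17130485 (mm9).

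Creld2, an ER protein with disulphide isomerase activity, had levels of 4.69 with vancomycin and 4.19 with saline at ZT2, and 4.69 with vancomycin and 4.06 with saline at ZT14. The differences were 1.42-fold and 1.54-fold, or 0.57 ± 0.14 over both times, with an adjusted p of 0.54 in limma. Its probe lies at chr15:88656997-88657056 (mm9). Manf, an ER-resident protein that binds BiP and is secreted under stress, had levels of 2.64 with vancomycin and 2.10 with saline at ZT2, and 2.70 with vancomycin and 2.18 with saline at ZT14. For both genes the vancomycin arrays lay above both saline arrays. For Manf the differences were 1.45-fold and 1.43-fold, or 0.53 ± 0.14 over both times, with an adjusted p of 0.55 in limma. A second Manf probe gave 0.43 and 0.66, and the brighter one lies at chr9:106791278-106791337 (mm9).

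Hspa5 encodes BiP, the main ER chaperone of the HSP70 family and the usual readout of the unfolded protein response. Its level was 5.99 with vancomycin and 5.73 with saline at ZT2, and 6.23 with vancomycin and 5.92 with saline at ZT14. Both vancomycin arrays were above both saline arrays, but by only 1.20-fold and 1.24-fold, and the difference over both times was 0.28 ± 0.14, with an adjusted p of 0.67 in limma. Its other probes were higher too, by 0.23 and 0.46 for one and by 0.35 and 0.84 for the other. The brightest probe lies at chr2:34631913-34631972 (mm9).

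Hyou1, an ER nucleotide exchange factor for BiP, had levels of -1.31 with vancomycin and -1.49 with saline at ZT2, and -1.60 with vancomycin and -2.30 with saline at ZT14. The saline array of ZT14 was the lowest. Its 3 other probes gave 0.11, 0.02 and 1.27 at ZT14, so the size at that time differed between probes. Dnajc3, a J-domain helper of BiP, gave 0.36 and 0.18, and Pdia4, a protein disulphide isomerase, gave 0.29 and 0.13.

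The remaining folding genes stayed close to 0 or differed in sign. Pdia3, the isomerase that works with the lectin chaperones, gave -0.03 and -0.06. Calr and Canx, which encode those lectins, calreticulin and calnexin, gave -0.09 and 0.01 at ZT2 and 0.09 and -0.19 at ZT14. Hsp90b1, the ER member of the HSP90 family, gave -0.06 and 0.15, and Pdia6 gave -0.17 and 0.24. Dnajb9, a J-domain protein that is known as an XBP1 target, gave -0.08 and -0.00, and its second probe 0.26 and 0.07. The second Pdia3 probe gave -0.06 and 0.16.

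The ER stress response element could be set against the differences for 11 of the 13 chaperone genes, since no promoter was held for Manf and Hyou1, which were among the larger differences. The 7 genes with it had a median difference of 0.01 at ZT2 and 0.18 at ZT14, with ranges of -0.17 to 0.51 and -0.19 to 0.63. The 4 genes whose promoter lacked it had medians of 0.13 and 0.06, with ranges of -0.08 to 0.64 and -0.06 to 0.68. The ranges overlap among these 11 genes. Sdf2l1, printed above with CCACG but without the full element, had the largest difference of the 11 at each time.

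**Figure D3:**
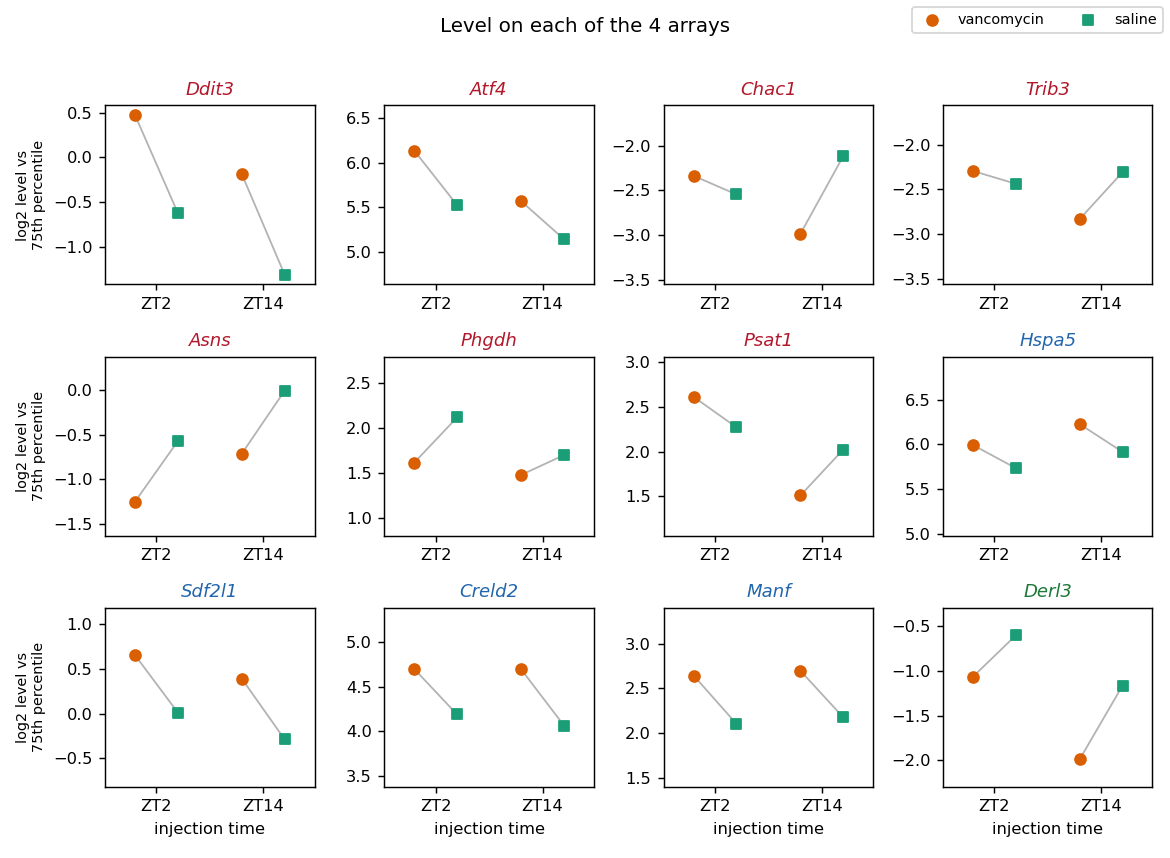
Levels of 12 genes on each of the 4 arrays, as log2 processed signal relative to the 75th percentile of the array (vertical axis), with 1 point per array and vancomycin left of saline at each injection time, joined by a line. Vancomycin is above saline at both times for Ddit3, at 0.47 against -0.62 and -0.19 against -1.31, and below it for Asns.

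Genes of ER-associated degradation and the translocon were mixed. Herpud1, a membrane protein of the degradation complex, gave 0.29 at ZT2 and 0.04 at ZT14. Sel1l, the adaptor of the ubiquitin ligase, gave 0.11 and 0.35, while a second probe gave -0.14 and -0.21 and the dimmest gave 0.31 and 0.76. Syvn1, the ligase itself, gave 0.24 and 0.16. Edem1, a lectin that hands glycoproteins to degradation, gave -0.19 and 0.44, while its second probe gave -0.34 and -0.22. Derl1, a channel component, gave -0.21 and 0.06, and its second probe 0.25 and 0.48. Sec61b, the beta subunit of the translocon, gave 0.01 and -0.21, and its second probe -0.14 and -0.01.

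Derl3, a derlin typical of secretory cells, was the only one of these 7 genes that was lower at both times. Its level was -1.07 with vancomycin and -0.60 with saline at ZT2, and -1.99 with vancomycin and -1.17 with saline at ZT14. The vancomycin array was the lower of its pair each time, by 1.38-fold and 1.77-fold, and the vancomycin array of ZT14 was the lowest. Across times the treatments overlapped, since vancomycin at ZT2 lay above saline at ZT14. The difference over both times was -0.64 ± 0.17, with an adjusted p of 0.56 in limma, from the probe at chr10:75358606-75358665 (mm9). Plasma and B cell markers were also lower with vancomycin at both times. Of 12 such markers 11 were measured and 6 were above background on all arrays, with summed linear levels of 2.81 with vancomycin and 20.3 with saline at ZT2, and 5.14 with vancomycin and 11.8 with saline at ZT14. In 9 of the 11 the vancomycin array was the lower of its pair at ZT2 and again at ZT14, with median differences of -1.70 and -1.18. Jchain, the joining chain of secreted antibody, gave -3.17 and -1.24, and Mzb1, an ER protein of plasma cells, gave -2.22 and -1.18. The marker difference was the larger one at ZT2, whereas that of Derl3 was larger at ZT14. Among saline arrays the marker sum and Derl3 were both lower at ZT14 than at ZT2. Among vancomycin arrays the marker sum was higher at ZT14 and Derl3 was lower. Jchain made up most of that sum, with vancomycin levels of 1.00 at ZT2 and 2.13 at ZT14. With vancomycin the median marker difference of ZT14 minus ZT2 was -0.20, with 5 of the 11 markers higher at ZT14 and 6 lower. With saline that median was -0.80, with 3 markers higher and 8 lower, and the Derl3 difference was -0.56. The part of the markers in the Derl3 difference was not tested. In whole kidney RNA, fewer cells of a type and less RNA per cell cannot be told apart.

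Set side by side, the ATF4 and CHOP side and the ER chaperone side differed most at ZT14. The 11 genes of the ATF4 and CHOP side had a median difference of 0.21 at ZT2 and -0.22 at ZT14, with ranges of -0.68 to 1.09 and -0.87 to 1.12. The 13 genes of the ER chaperone side had medians of 0.19 and 0.18, with ranges of -0.17 to 0.64 and -0.19 to 0.70. Over all genes above background on every array the medians were 0.00 at ZT2 and 0.01 at ZT14. At ZT2, 8 of 11 genes of the ATF4 and CHOP side and 8 of 13 chaperone genes were higher with vancomycin, against 10489 of all 20759 genes. At ZT14 these counts were 4 of 11 and 10 of 13, against 10809 of 20759. The chaperone side held 7 genes that were higher at both times, 2 that were lower at both and 4 of opposite sign. Over all genes these shares were 29.9%, 27.3% and 42.8%. On the brightest probes the ATF4 and CHOP side was the wider of the pair, since it held both the largest positive and the largest negative differences of the set. The sensors had medians of 0.13 and -0.02, and degradation and translocation 0.01 and 0.06. No test was made between the sides.

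**Figure D4:**
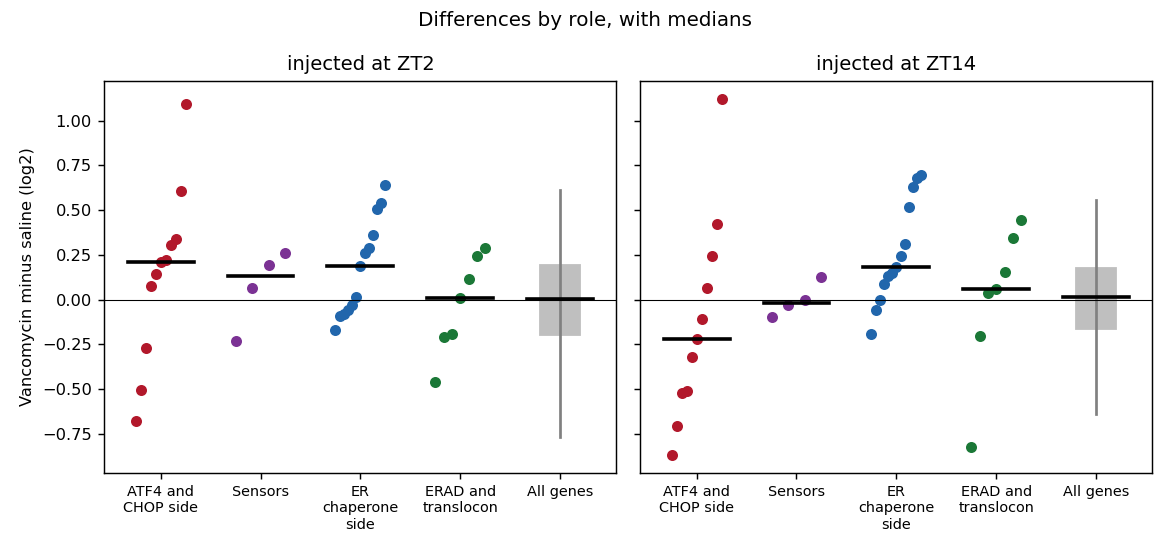
Differences of vancomycin minus saline (log2, vertical axis) by role, at ZT2 and at ZT14, with 1 point per gene a bar at the median of each role, and at the right the 25th to 75th percentile (box) and 5th to 95th percentile (line) of all genes. The median of the ATF4 and CHOP side is 0.21 at ZT2 and -0.22 at ZT14, and that of the ER chaperone side 0.19 and 0.18.

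Counted over the whole set, few genes passed the 1.5-fold size at 1 time, and their shares were of the same order as those of all genes. At ZT2, 3 of 35 genes were higher by 1.5-fold or more, or 8.57% against 5.54% of the 20759 genes, and 1 was lower, or 2.86% against 7.9%. At ZT14, 4 were higher, or 11.4% against 4.46%, and 3 were lower, or 8.57% against 5.81%. On the brightest probes, Ddit3 and Sdf2l1 were past 1.5-fold upward at each time, as were 1.02% of all genes. Asns was past it downward at each, as were 2.3%. The second probes of Ddit3 at ZT14 and of Asns at ZT2 were not past it.

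By sign alone, 14 of 35 genes were higher at both times (40.0% against 29.9% of all genes). Another 6 were lower at both (17.1% against 27.3%), and 15 had opposite signs (42.9% against 42.8%). The differences at ZT14 and ZT2 stood 1.5-fold or more apart in Chac1, Psat1, Trib3 and Edem1, or 11.4% of the set against 16.8% of all genes. At an unadjusted p under 0.05 in limma's additive fit, Ddit3, Atf4, Sdf2l1, Creld2 and Manf were higher with vancomycin. These are 5 of 35 genes, against 3.21% of all genes. Asns and Derl3 were lower at that p, or 2 of 35 against 5.35%, and none of these 7 passed the adjustment.

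Further genes of the same pathways were read from lists of 151 names, of which 148 were measured. Their median differences were -0.04 at ZT2 and -0.03 at ZT14, with 33 higher at both times (22.3% against 29.9% of all genes) and 52 lower at both (35.1% against 27.3%). Past 1.5-fold at both times, 1 was higher, or 0.676% against 1.02%, and 2 were lower, or 1.35% against 2.3%. The 1.5-fold shares are below those of all genes, and the 3 genes are named as descriptions. Atf3, a stress factor that ATF4 and CHOP are known to turn on, had levels of -2.09 with vancomycin and -3.20 with saline at ZT2, and -2.61 with vancomycin and -3.32 with saline at ZT14. Both vancomycin arrays were above both saline arrays. Mthfd1l, a mitochondrial enzyme of one-carbon metabolism, gave -0.98 and -0.61. Slc1a5, a transporter of glutamine, gave -0.80 and -0.76.

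As lists, none of these stood far from 0. Other ATF4 and CHOP targets, with 32 genes measured, had medians of 0.01 at both times, and aminoacyl-tRNA synthetases, with 12 genes, had 0.05 and -0.13. The eIF2 kinases and their partners gave -0.07 and -0.07, and other stress transducers -0.02 and -0.06. Other ER folding genes gave -0.07 and -0.05, other genes of degradation -0.01 and -0.00, and translocation -0.12 and -0.01. Over all 148 genes limma called 0 for vancomycin at an adjusted p under 0.05, and at an unadjusted p under 0.05 it gave 2 higher (1.35% against 3.21%) and 4 lower (2.7% against 5.35%).

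Injection time was compared within each treatment, ZT14 minus ZT2. Slide and time coincide here, and both treatments used the same slides. Most genes of the set were lower at ZT14, with 19 of 35 lower in both vancomycin and saline kidneys (54.3% against 35.3% of all genes) and 9 higher in both (25.7% against 39.4%). Ddit3 was lower at ZT14 by 0.66 with vancomycin and by 0.69 with saline, as the levels above show. On this probe its gap to saline was 1.09 at ZT2 and 1.12 at ZT14, but 0.92 and 0.42 on the second probe. The second Ddit3 probe was lower at ZT14 by 0.88 with vancomycin and by 0.38 with saline, the latter under 1.5-fold. Pdia3 had levels of 2.93 at ZT14 and 3.60 at ZT2 with vancomycin, and 2.99 at ZT14 and 3.63 at ZT2 with saline. On the brightest probes these 2 of the 35 genes were lower by 1.5-fold or more in both treatments, against 4.27% of all genes. By that size 0 were higher in both, against 10.6%. A second, dimmer Pdia3 probe gave 0.10 with vancomycin and -0.11 with saline.

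Over both treatments, the ZT14 minus ZT2 difference was -0.68 ± 0.14 for Ddit3, with an adjusted p of 0.12 in limma, and -0.65 ± 0.14 for Pdia3, with an adjusted p of 0.13 in limma. Derl3 gave -0.74 ± 0.17, with an adjusted p of 0.14 in limma. At an unadjusted p under 0.05, Ddit3, Pdia3, Derl3 and Dnajb9 were lower at ZT14, or 4 of 35 against 9.27% of all genes. A second, dimmer Dnajb9 probe gave -0.02 with vancomycin and 0.17 with saline. Sec61b and Asns were higher at that p, or 2 of 35 against 18% of all genes. After adjustment limma called 0% of all genes for time, and none of the 35.

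On the brightest probes, vancomycin and saline kidneys parted in a few genes. Psat1 was lower at ZT14 by 1.10 with vancomycin and by 0.25 with saline. Trib3 gave -0.54 with vancomycin and 0.13 with saline. Edem1 gave -0.08 with vancomycin and -0.71 with saline, but its second probe gave -0.59 and -0.72. Hyou1 gave -0.29 with vancomycin and -0.80 with saline. Its dimmest probe gave -0.22 and -0.92, but the others gave -0.21 and 0.05, and -0.34 and -0.22. Chac1 gave -0.65 with vancomycin and 0.43 with saline. The median over the ATF4 and CHOP side was -0.32 with vancomycin and -0.08 with saline, and over the chaperone side -0.09 with vancomycin and -0.30 with saline. Over all genes it was 0.03 with vancomycin and 0.02 with saline.

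**Figure D5:**
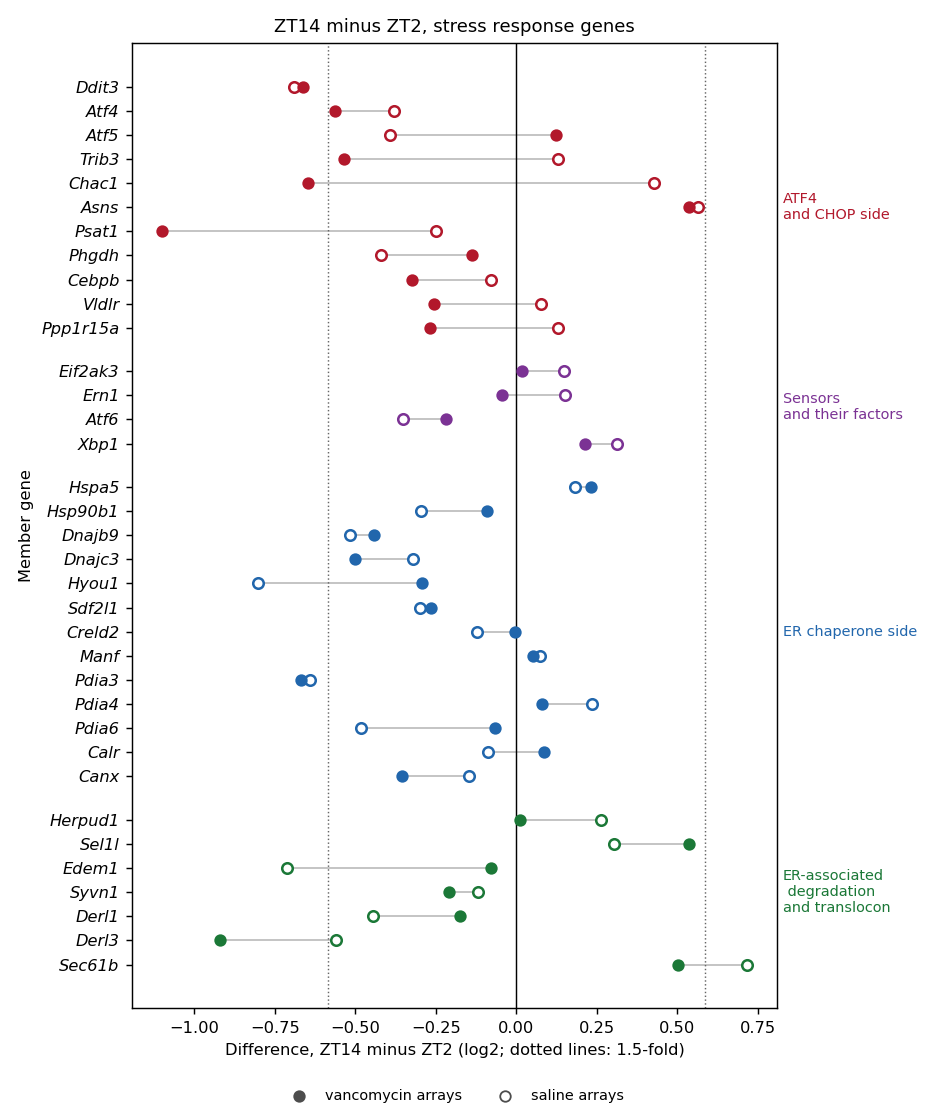
Difference of ZT14 minus ZT2 (log2, horizontal axis) for each of the 35 genes in rows grouped by role, with filled points for the vancomycin arrays and open points for the saline arrays, 1 pair each, and dotted lines at 1.5-fold. Ddit3 and Pdia3 lie below the lower dotted line in both treatments, and Chac1, Psat1, Trib3 and Edem1 show the widest gaps between treatments.

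All 12 kidney markers were well above background on every array, with summed linear levels of 836.8 to 999.9. Spots well above background made up 60.6% to 64.7% of each array and 0 were saturated. Tubular injury markers summed to 136.1 with vancomycin and 118.5 with saline at ZT2, and to 107.6 with vancomycin and 96.7 with saline at ZT14, while their median differences were -0.59 and -0.02. Clu and Spp1 made up most of each of these sums. Of the 10 injury markers, 3 were higher with vancomycin and 7 lower at ZT2, and 4 were higher and 6 lower at ZT14. Havcr1, which encodes the injury marker KIM-1, had levels of -0.38 with vancomycin and -4.27 with saline at ZT2, and -4.68 with vancomycin and -1.11 with saline at ZT14, so its sign turned between times. Adrenal markers, with 9 of 11 measured, summed to 6.49 with vancomycin and 0.676 with saline at ZT2, and to 1.32 with vancomycin and 0.725 with saline at ZT14. Fat cell markers summed to 20.4 with vancomycin and 42.8 with saline at ZT2, and to 10.7 with vancomycin and 9.15 with saline at ZT14. Fabp4 made up most of the ZT14 sums. The median fat cell marker difference of ZT14 minus ZT2 was -3.98 with vancomycin and -4.01 with saline. At ZT2, 3 of the 9 fat cell markers were higher with vancomycin and 6 were lower. Macrophage markers summed to 20.2 to 24.9, and 9 of 11 were lower with vancomycin at ZT2 and at ZT14, with medians of -0.47 and -0.48. Pancreatic acinar markers, with 5 of 9 measured, summed to 30.3 to 41.9. Nearly all of that sum was Cela1, with levels of 4.90 to 5.38. The other measured acinar markers had levels between -5.74 and -1.81. The part of these markers in the differences of the stress genes was not tested.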

How the data were processed

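Kidney total RNA was labelled with Cy3 and hybridized to Agilent mouse expression arrays, 1 per group. Agilent Feature Extraction read the images, in version 10.7.1.1 by the header and 9.5.1.1 per the submitters' processing notes. The deposited processed signal is an intensity with background subtracted and no normalization between arrays, per the file headers. A table of probe intensities that the authors made themselves served as an alternative.

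Spots carrying a flag for non-uniformity or as population outliers were dropped, log2 signals were centred on the 75th percentile of each array and spots of a probe averaged. Probes with 50% or more of their spots well above background on 1 or more arrays were kept, and the brightest probe stood for each gene. Member probes had 1 spot each, and the members had 65 probes, of which 60 were well above background on all 4 arrays. The number of arrays limits the precision. limma 3.58.1 in R 4.3.3 fitted treatment and injection time with eBayes, which gave a prior SD of 0.168 with 1.86 degrees of freedom. The limma script was tested on simulated data. Background shares use the 20759 genes above background on all arrays, and 24638 for limma. Names of genes come from the scanner output.

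The members and lists were chosen with earlier results of these data known. Values per array were given for members past 1.5-fold in a single direction at both times or past 2-fold at either, for Atf4, Xbp1 and Hspa5, and for others where the text says so. Of the other pathway genes, those past 1.5-fold in a single direction at both times were named. Alternatives were another background correction, centring, quantile normalization, the authors' table, the mean over probes, filters on dim probes, a pseudocount of 16, other covariates and another prior. The protein ends of the chaperones were not analysed here, and no promoter was held for Hyou1, Derl1, Manf and Atf6.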

Additional observations from a re-analysis of the deposited data

Results flagged for a closer look

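The vancomycin minus saline difference had opposite signs at the injection times in 15 of the 35 genes. With 1 array per group the difference between times was not tested, and 42.8% of all genes above background had opposite signs too. The values that follow are the ZT14 difference minus the ZT2 difference, in log2 units. On the ATF4 and CHOP side they were -1.07 for Chac1, -0.85 for Psat1, -0.67 for Trib3, -0.40 for Ppp1r15a, -0.33 for Vldlr and 0.51 for Atf5. So 5 of these 6 genes were lower with vancomycin at ZT14 and higher at ZT2, and Atf5 ran the other way. Among the sensors they were -0.20 for Ern1 and -0.10 for Xbp1. On the chaperone side they were 0.41 for Pdia6, 0.20 for Hsp90b1, 0.18 for Calr and -0.21 for Canx. In degradation and translocation they were 0.63 for Edem1, 0.27 for Derl1 and -0.22 for Sec61b. Further probes above background on all arrays did not show opposite signs in Edem1, Ern1, Xbp1, Derl1 and Sec61b. The second probes of Psat1, Atf5, Vldlr and Canx did.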

How the results depend on the processing

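No paired analysis was possible because the labels carry no replicate numbers, other than the fit reported, whose injection time term also pairs the arrays that share a slide. With 1 array per group, none could be left out. With 8 other settings for the single-time values, 545 of 560 alternative values of single genes moved by less than the prior SD of 0.168 and 15 by more. No single value was called by a test, and 11 values of 8 genes (Ern1, Atf6, Xbp1, Dnajb9, Herpud1, Pdia3, Derl1 and Sec61b) took both signs over the settings. Of these 11, 8 were under 0.1 in size as reported, and Ern1, Atf6 and Derl1 at ZT2 turned only with the mean over probes, to -0.51, 0.48 and 0.02. The mean over probes gave 0.77 for Ddit3 at ZT14 and -0.33 for Asns at ZT2. At ZT2 the genes past 1.5-fold numbered 4, against 2 with normexp background correction and 2 with the mean over probes. The medians of both sides kept their sign in all 8 settings. That of the ATF4 and CHOP side lay at 0.17 to 0.25 at ZT2 and -0.22 to -0.17 at ZT14, and that of the chaperone side at 0.17 to 0.28 and 0.17 to 0.21. For vancomycin limma called 0 genes in every setting tried, and the smallest adjusted p of any member lay between 0.11 with a trended robust prior and 1.00 without the injection time term. For ZT14 minus ZT2, limma called 0 of the 35 genes as reported, 4 with normexp (Ddit3, Derl3, Pdia3 and Sec61b) and 4 with the trended robust prior (Atf4, Ddit3, Pdia3 and Sec61b). The second Atf4 probe gave 0.03 with vancomycin and -0.12 with saline for ZT14 minus ZT2. Over all genes the time calls numbered 0 as reported, 3008 with normexp, 1767 with a pseudocount, 1636 with probes above background on all arrays, 3396 with the trended robust prior and 1332 without the treatment term. The cause was not tested.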
